A study of Homo sapiens with 8 samples.

Results

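The cholesterol and fatty acid synthesis genes are the enzymes that turn acetyl-CoA into cholesterol and long-chain fatty acids, together with the regulators that control them. Membership was a list of 34 names with no cut on a measured value, drawn up with earlier results of these data known. A gene was read through the probe sets whose probe-table entry held its symbol alone, and through the brightest of these by mean over the 8 arrays. This gave a value for 31 of the 34 genes, out of 18132 genes read this way, and all 31 were among the 10527 genes bright enough to test. The other 3 genes, FDFT1, CYP51A1 and ACSL3, had no probe set with a single symbol and were not analysed here.

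The study compared ceritinib-resistant H3122-LR2 and H3122-LR3 cells with parental H3122 cells, a human lung adenocarcinoma line with the EML4-ALK fusion kinase. All lines were grown in RPMI with 10% FBS. LR2 cells were measured with ceritinib, with crizotinib and untreated, LR3 cells with ceritinib and untreated, and parental cells with ceritinib, with crizotinib and untreated. Both agents inhibit ALK and were given at 1000 nM for 6 h, and LR3 cells had no crizotinib array. The untreated arrays were entered with a dose of 0 nM and a time of 0 h. No array kept for 6 h without an agent is listed, so agent and time cannot be told apart. Each of these 8 conditions had 1 array and no replicate. How the resistant lines were made, and whether each is 1 clone, is not given in the sources used here. In a bulk culture, fewer cells expressing a gene and less RNA per cell cannot be told apart.

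Sterol synthesis starts with the mevalonate pathway, which makes isoprenoid units that are joined into squalene, closed into lanosterol and trimmed to cholesterol. Its genes are controlled by SREBP transcription factors, encoded by SREBF1 and SREBF2. When sterols are low, SCAP escorts SREBP from the endoplasmic reticulum to the Golgi, where it is cleaved into an active factor, and INSIG proteins hold the complex back when sterols are plentiful. SREBP-2 acts mainly on sterol genes and SREBP-1c mainly on fatty acid genes. Growth factor signalling through PI3K, AKT and mTOR is known to raise SREBP activity in many cultured cells.

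All values are log2 signals, and differences are log2 differences. The LR2 ceritinib array had a median over all probe sets of 5.46, and the 7 others had medians of 5.31 to 5.36. The median tested gene was 0.10 higher in LR2 with ceritinib than in LR2 untreated. All 7 epithelial markers were above the detection floor of 5.36 on every array, and 5 of 7 markers of fibroblasts, leukocytes and endothelium were below it on every array. As a check of the agents, DUSP6, a phosphatase induced by ERK signalling, read 11.51 in LR2 with ceritinib, 7.26 in LR2 with crizotinib and 11.79 in LR2 untreated. It read 12.04 in LR3 with ceritinib and 12.17 in LR3 untreated. In parental cells it read 7.39 with ceritinib, 7.93 with crizotinib and 12.41 untreated. SPRY4, another ERK-induced inhibitor, followed the same pattern. Of 7 such ERK output genes, 7 were at least 1.25-fold lower than untreated in LR2 with crizotinib and in parental cells with either agent, 2 were in LR2 with ceritinib and 0 were in LR3 with ceritinib.

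The genes were well expressed. Their median level was 8.71, against 7.55 over all genes tested, and 23 of 31 lay above the median gene. Their range over the 8 arrays had a median of 0.59, against 0.48 over all genes tested. The parental ceritinib array held the lowest value of 16 of the 31 genes, against 13.3% of all genes tested, and LR3 untreated held the highest value of 11, against 13.9%.

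**Figure D1:**
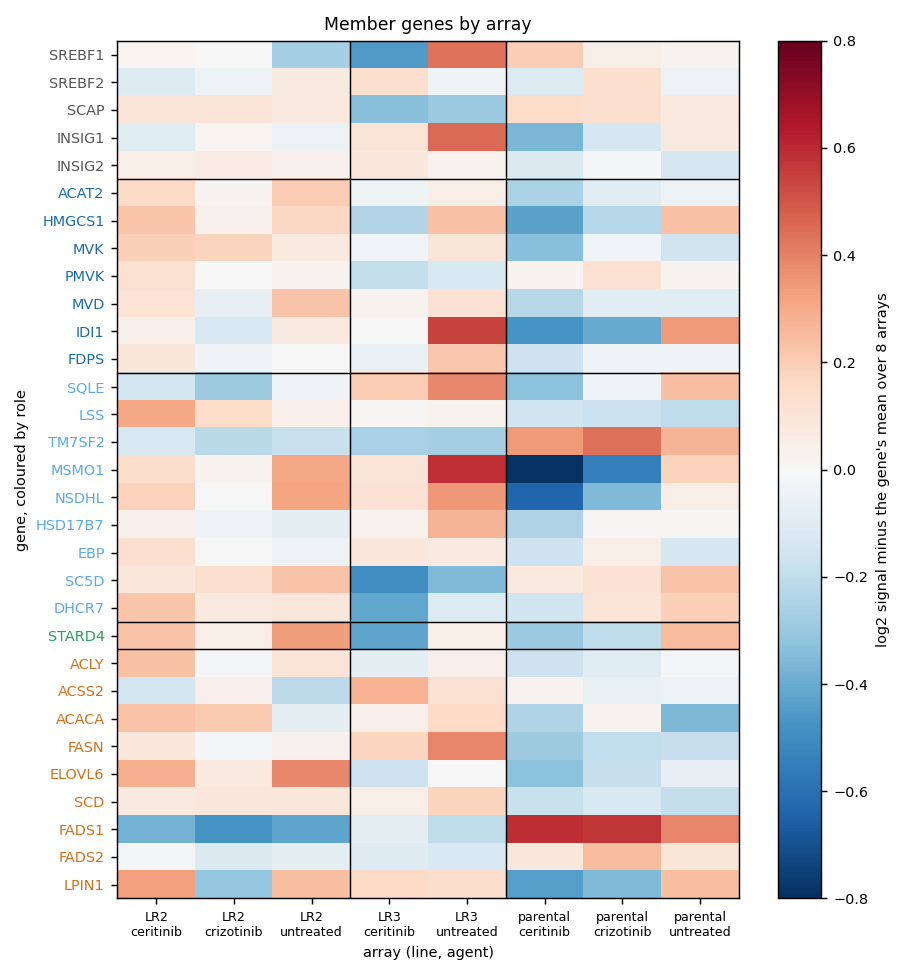
Heat map of the 31 measured genes (rows, grouped by role) on the 8 arrays (columns), as log2 signal minus the gene's mean over the arrays. The parental ceritinib column is the lowest for 16 genes, and FADS1 and TM7SF2 stand high in the parental columns.

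Inhibitor treatment came with lower signal of a set of sterol genes in parental cells. Relative to untreated parental cells, 9 of 31 genes were at least 1.25-fold lower with ceritinib (8.22% of all genes tested), and 6 with crizotinib (7.98%). In the other direction, 0 genes were that much higher with ceritinib (10.4% of all genes tested), and 1, ACACA, with crizotinib (11.6%). The 1.25-fold limit was chosen after the values were seen, and these are differences between single arrays with no test. Of the 31, 6 were that much lower with both agents (5.85% of all genes tested): HMGCS1, IDI1, MSMO1, NSDHL, STARD4 and LPIN1. Both differences use the same untreated parental array.

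MSMO1, the C4-methyl sterol oxidase of late sterol synthesis, read 10.22 with ceritinib, 10.46 with crizotinib and 11.19 untreated in parental cells. In LR2 it read 11.15 with ceritinib, 11.03 with crizotinib and 11.32 untreated. In LR3 it read 11.11 with ceritinib and 11.59 untreated. The treated value was below the untreated one in every line, and the parental treated arrays were the lowest of the 8.

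IDI1, which isomerises isopentenyl diphosphate, read 8.92 with ceritinib, 8.99 with crizotinib and 9.73 untreated in parental cells. It read 9.43, 9.27 and 9.46 in LR2 with ceritinib, with crizotinib and untreated, and 9.39 and 9.93 in LR3 with ceritinib and untreated. The LR2 arrays differed little, while both other lines were lower with inhibitor. HMGCS1, the synthase that makes HMG-CoA, read 10.28 with ceritinib, 10.48 with crizotinib and 10.94 untreated in parental cells. It read 10.93, 10.74 and 10.87 in LR2 with ceritinib, with crizotinib and untreated, and 10.47 and 10.94 in LR3 with ceritinib and untreated. Its other probe set was lower by the same sign in each of these parental and LR3 pairs.

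NSDHL, a dehydrogenase that acts with MSMO1, read 8.33 with ceritinib, 8.61 with crizotinib and 9.01 untreated in parental cells. STARD4, a carrier that moves sterol between membranes, read 7.38 with ceritinib, 7.47 with crizotinib and 7.93 untreated there. It read 7.90, 7.73 and 8.01 in LR2 with ceritinib, with crizotinib and untreated, and 7.25 and 7.73 in LR3 with ceritinib and untreated. SQLE, the epoxidase that oxidises squalene, read 9.72 with ceritinib, 10.01 with crizotinib and 10.29 untreated in parental cells. It passed the 1.25-fold limit with ceritinib alone.

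By role, the 9 late sterol genes had median differences from untreated of -0.26 with ceritinib and -0.09 with crizotinib in parental cells, against 0.02 and 0.04 over all genes tested. The 7 early mevalonate genes had medians of -0.17 and -0.01, and the 9 fatty acid genes -0.01 with each agent. In these arrays the late sterol genes thus lay further below their untreated level than the fatty acid genes.

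In the fit that set both inhibitor arrays of the parental line against its untreated array, MSMO1 differed by -0.85 ± 0.14 (SE) and IDI1 by -0.78 ± 0.12, each with a limma adjusted p of 0.142. HMGCS1 differed by -0.56 ± 0.14 (adjusted p = 0.162), NSDHL by -0.54 ± 0.16 (adjusted p = 0.196), STARD4 by -0.51 ± 0.12 (adjusted p = 0.158) and SQLE by -0.43 ± 0.15 (adjusted p = 0.247). None of the 10527 genes was called in this comparison (0%), although 1849 had an unadjusted limma p under 0.05, 6 of them among the 31. Only parental and LR2 cells had arrays with both agents, so the spread in this fit was that between the agents in these lines. With 1 untreated array per line and 1 LR3 inhibitor array, none of these added to it. The p-values thus measure no spread between replicates.

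**Figure D2:**
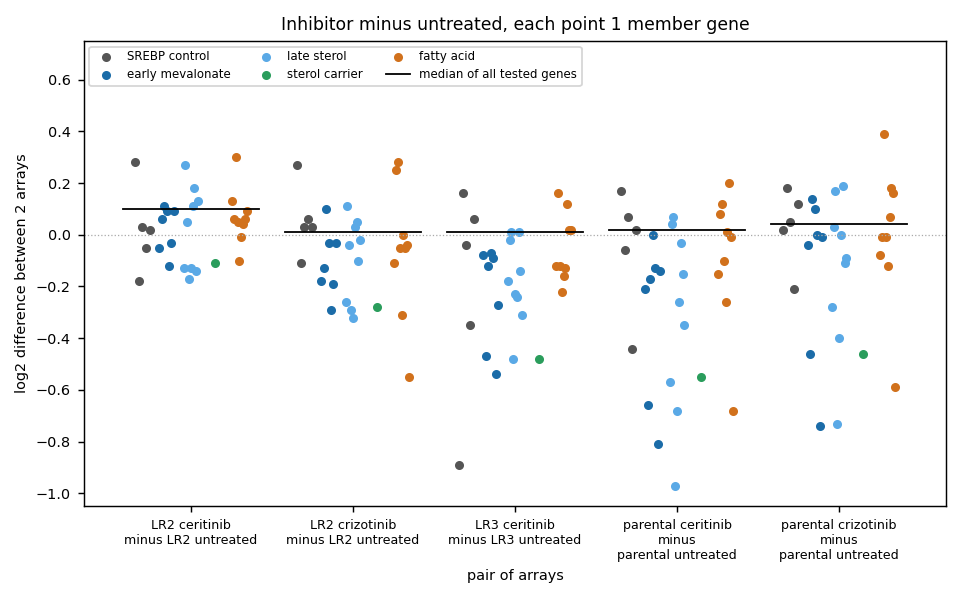
Log2 difference (vertical axis) of each inhibitor array from the untreated array of its own line, with 1 point per gene, coloured by role, for the 5 pairs of arrays, and a line at the median of all genes tested. The lowest points of the parental ceritinib pair reach -0.97 (MSMO1) and those of the LR3 pair -0.89 (SREBF1), while the points of the LR2 ceritinib pair stay within the 1.25-fold limit.

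Fewer of the 31 genes passed this limit in LR2. There, 0 of 31 genes were 1.25-fold lower with ceritinib (0.931% of all genes tested) and 1, LPIN1, was with crizotinib (7.59%). None was that much higher with either agent (8.76% of all genes tested for each). Several lay just short of the limit with crizotinib: NSDHL at -0.32, ELOVL6 at -0.31, MSMO1 and MVD at -0.29 and STARD4 at -0.28. Of the 31, 20 were below untreated with crizotinib and 10 above, with a median of -0.04. Over all genes tested, 4924 were below and 5379 above, with a median of 0.01. The median difference of the 31 genes in LR2 with ceritinib was 0.05 as deposited and -0.07 after each array was centred on its median. In LR3, 6 of 31 genes were 1.25-fold lower with ceritinib (2.8% of all genes tested) and 0 were higher (4.4%). These were SREBF1, INSIG1, HMGCS1, IDI1, MSMO1 and STARD4. The 5 genes other than SREBF1 were also lower in parental cells with ceritinib. DUSP6 read 12.04 in LR3 with ceritinib and 7.39 in parental cells with ceritinib. Whether ERK output had a part in these differences was not tested.

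Differences between the lines in response were not called for any gene (0% in each comparison), with 251 genes at an unadjusted limma p under 0.05 for LR2 minus parental and 505 for LR3 minus parental. The inhibitor responses within LR2 and within LR3 were not called for any gene either (0% each), with 1015 and 499 genes at an unadjusted p under 0.05. The response of LR2 minus that of parental cells was 0.67 for IDI1, 0.62 for MSMO1 and 0.53 for HMGCS1, with limma adjusted p = 0.998. Both lines' responses are each set against a single untreated array, so these values have no replicate check.

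LPIN1, a phosphatidate phosphatase of glycerolipid synthesis and a transcriptional coactivator, had another pattern. It read 11.67 in LR2 with ceritinib, 11.03 in LR2 with crizotinib and 11.58 in LR2 untreated. It read 11.50 in LR3 with ceritinib and 11.48 in LR3 untreated. In parental cells it read 10.90 with ceritinib, 10.99 with crizotinib and 11.58 untreated. The 3 low arrays were the same 3 that had low DUSP6, and the 5 others lay at 11.48 or above. All 3 of its probe sets were lower in both parental inhibitor arrays. Whether ERK output had a part in this was not tested.

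Among the regulators, SREBF1 read 8.25 in LR3 with ceritinib and 9.14 in LR3 untreated, a difference of -0.89, and lay between 8.44 and 8.90 on the other 6 arrays. The probe sets of the gene did not give the same picture. A second one of like brightness read 8.64 in LR3 with ceritinib and 8.75 untreated, a difference of -0.11, and another, near the floor, differed by 0.21. SREBF2 read between 7.31 and 7.55 on all 8 arrays.

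INSIG1, which retains the SREBP complex and is itself an SREBP target, read 10.60 with ceritinib, 10.83 with crizotinib and 11.04 untreated in parental cells. It read 10.87, 10.98 and 10.92 in LR2 with ceritinib, with crizotinib and untreated, and 11.07 and 11.42 in LR3 with ceritinib and untreated. With this probe set the lower value with ceritinib was present in parental and LR3 cells and small in LR2. The dimmer probe sets of the gene did not all show this contrast. With ceritinib, a dimmer probe set differed from untreated by -0.17 in parental, -0.15 in LR3 and -0.12 in LR2 cells, so the lines were close. Another differed by -0.43, -0.31 and -0.08 in the same order.

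**Figure D3:**
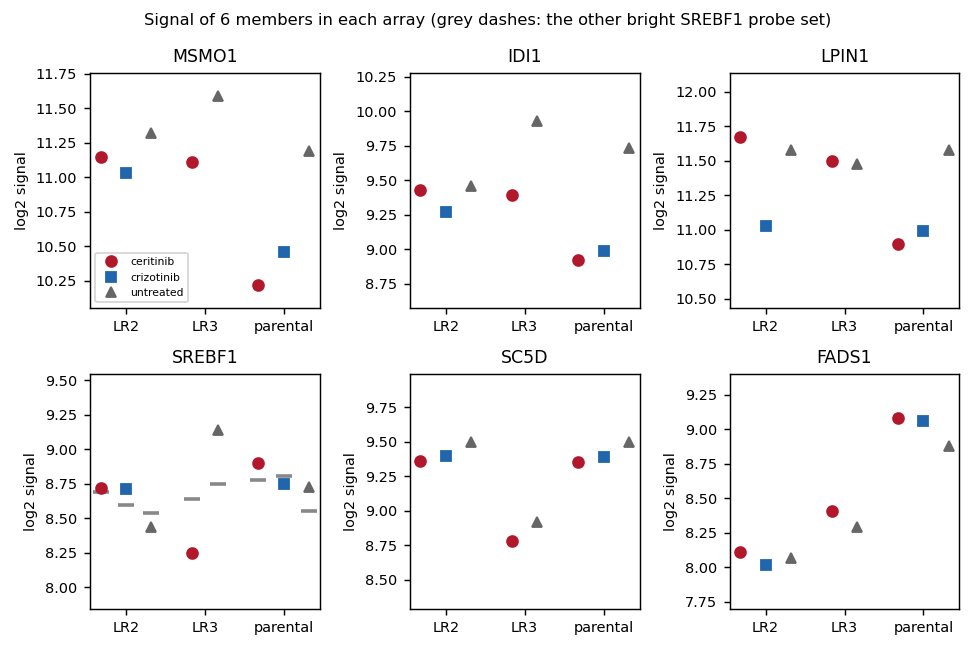
Log2 signal of MSMO1, IDI1, LPIN1, SREBF1, SC5D and FADS1 on each of the 8 arrays, 1 point per array, with a second bright SREBF1 probe set as grey dashes. LPIN1 is low in the 3 arrays from 10.90 to 11.03, and the SREBF1 probe sets part in LR3.

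Ceritinib and crizotinib were both given, at the same dose and time, to LR2 and parental cells, and the fit also drew on the LR3 arrays. Over the lines, 0 genes were called between the agents (0% higher and 0% lower), with 637 at an unadjusted limma p under 0.05 and 0 of them among the 31. The difference of ceritinib minus crizotinib was -0.04 for MSMO1, with a 95% interval of -0.41 to 0.32, and 0.33 for LPIN1, with an interval of -0.08 to 0.73. These intervals hold differences of a size seen elsewhere here, so the agents are not shown to act alike. By single arrays, MSMO1 differed by 0.12 in LR2 and -0.24 in parental cells, and LPIN1 by 0.64 and -0.09. The fitted values thus average opposite signs. Ceritinib against untreated called no gene (0% higher and 0% lower), with 2017 genes and 7 of the 31 at an unadjusted p under 0.05. Other settings called up to 61 genes there, and 0 of the 31. Crizotinib against untreated called 2.82% of all genes higher and 0.94% lower, and 0 of the 31. The parental ceritinib array decided the counts with crizotinib: without parental ceritinib, crizotinib against untreated called 5 of the 31, all lower (7% of all genes tested were called lower). They were LPIN1 by -0.58 (limma adjusted p = 0.0019), MSMO1 by -0.54 (adjusted p = 0.0129), IDI1 by -0.51 (adjusted p = 0.0335), STARD4 by -0.41 (adjusted p = 0.0258) and NSDHL by -0.37 (adjusted p = 0.0176). Each was called in only 1 of 16 alternatives, this one. On all arrays the limma adjusted p was 0.127 for LPIN1, 0.107 for MSMO1, 0.113 for IDI1, 0.081 for STARD4 and 0.177 for NSDHL. Leaving out an array also takes its misfit to the model out of the spread, so the smaller p-values add no evidence. Without parental ceritinib, ceritinib minus crizotinib called 401 of the 10527 genes (3% of all genes tested were called higher). LPIN1, at 0.63 (limma adjusted p = 0.00988), was the only member of the 31 among them. It too was called in only 1 of 16 alternatives, and its limma adjusted p on all arrays was 0.81. In the fit without parental ceritinib, the ceritinib arrays were those of the resistant lines alone, so agent and resistance cannot be fully told apart. The parental pair, in which LPIN1 differed by -0.09, was not part of it.

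SREBP is known to act at sterol genes together with NF-Y, which binds the letters CCAAT. The promoters of the 6 genes that were lower in both parental inhibitor arrays are shown for that reason, and SREBF2 as the one gene with TCACNCCAC. RefSeq windows of 250 bases before to 50 after the start site, on GRCh38.p14, were found for 30 of the 34 genes. Each symbol was read through 1 window, the first listed, so any other start site was not searched. CCAAT, on either strand, was present in 19 of the 30, against 35.7% of 27305 windows. Those windows covered all symbols with a window and not the tested genes alone. TCACNCCAC, the letters of a sterol regulatory element, was present on either strand in 1 of the 30, SREBF2, against 1.15%. Of the 6 genes lower with both agents, 4 held CCAAT and 0 held TCACNCCAC, and IDI1 and LPIN1 held neither. Overlapping matches were each counted. The 250 bases before the start site follow for MSMO1 (chr4:165327419-165327668, plus strand), NSDHL (chrX:152830813-152831062, plus strand), HMGCS1 (chr5:43313413-43313662, minus strand), STARD4 (chr5:111512536-111512785, minus strand), IDI1 (chr10:1056705-1056954, minus strand), LPIN1 (chr2:11746382-11746631, plus strand) and SREBF2 (chr22:41832855-41833104, plus strand), 5' to 3' on the strand of the gene. Capitals mark CCAAT or its reverse complement ATTGG, and in SREBF2 also TCACNCCAC.
MSMO1: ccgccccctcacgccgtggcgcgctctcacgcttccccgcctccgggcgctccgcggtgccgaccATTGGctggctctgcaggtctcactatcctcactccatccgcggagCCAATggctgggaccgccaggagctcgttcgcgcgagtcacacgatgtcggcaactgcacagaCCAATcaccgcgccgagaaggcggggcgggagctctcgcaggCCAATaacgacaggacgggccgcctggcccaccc
NSDHL: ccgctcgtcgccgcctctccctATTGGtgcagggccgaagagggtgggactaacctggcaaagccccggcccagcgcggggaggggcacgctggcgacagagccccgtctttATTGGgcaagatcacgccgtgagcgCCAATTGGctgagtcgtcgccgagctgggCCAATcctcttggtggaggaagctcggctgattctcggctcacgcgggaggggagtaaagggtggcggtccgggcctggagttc
HMGCS1: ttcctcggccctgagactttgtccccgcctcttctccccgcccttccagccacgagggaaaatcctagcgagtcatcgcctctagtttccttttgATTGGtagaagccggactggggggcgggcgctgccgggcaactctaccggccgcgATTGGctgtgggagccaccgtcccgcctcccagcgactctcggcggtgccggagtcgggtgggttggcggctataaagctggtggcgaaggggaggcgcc
STARD4: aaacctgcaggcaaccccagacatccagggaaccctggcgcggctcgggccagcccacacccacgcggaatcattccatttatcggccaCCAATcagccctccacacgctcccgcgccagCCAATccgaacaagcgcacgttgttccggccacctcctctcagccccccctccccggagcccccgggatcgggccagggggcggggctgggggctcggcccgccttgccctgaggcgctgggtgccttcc
IDI1: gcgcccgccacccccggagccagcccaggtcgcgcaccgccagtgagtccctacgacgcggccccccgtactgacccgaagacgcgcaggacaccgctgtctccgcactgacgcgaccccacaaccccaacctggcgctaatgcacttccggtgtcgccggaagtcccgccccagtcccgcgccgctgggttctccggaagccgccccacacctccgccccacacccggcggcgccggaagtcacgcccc
LPIN1: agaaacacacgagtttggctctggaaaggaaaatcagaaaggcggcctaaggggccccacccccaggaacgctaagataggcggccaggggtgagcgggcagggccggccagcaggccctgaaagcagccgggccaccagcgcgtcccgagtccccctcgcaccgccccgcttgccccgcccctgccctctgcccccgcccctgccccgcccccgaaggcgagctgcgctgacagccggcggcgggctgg
SREBF2: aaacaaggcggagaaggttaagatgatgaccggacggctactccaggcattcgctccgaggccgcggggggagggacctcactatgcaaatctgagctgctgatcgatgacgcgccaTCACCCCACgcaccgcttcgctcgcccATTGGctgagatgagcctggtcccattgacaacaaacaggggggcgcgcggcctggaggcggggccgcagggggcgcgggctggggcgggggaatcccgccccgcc
Counted from the start site, MSMO1 held 4 matches to CCAAT, first base at -185, -139, -76 and -34, and NSDHL held 5, of which those at -113 and -110 overlap. HMGCS1 held 2, at -155 and -100, and STARD4 held 2, at -161 and -130. In SREBF2, TCACNCCAC began at -133 and CCAAT at -106. A match is a description of the letters and not of a bound site.

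LR2 was set against parental cells over the 3 conditions that both lines had. In the additive fit, 9 of 31 genes rose in LR2 (12.8% of all genes tested) and 2 fell (9.68%). The 9 were ELOVL6, NSDHL, MSMO1, LSS, MVK, ACACA, ACAT2, FASN and SCD, and the 2 were FADS1 and TM7SF2. The median difference of the 31 was 0.14, against 0.02 over all genes tested. With arrays scaled otherwise the 31 split 8 to 3 (quantile) or 9 to 3 (centred), and all genes tested 1177 to 1408 or 1289 to 1274, against 1350 to 1019 as deposited.

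FADS1, the delta-5 desaturase of polyunsaturated fatty acids, had the largest difference of the 31. It read 8.11, 8.02 and 8.07 in LR2 with ceritinib, with crizotinib and untreated, against 9.08, 9.06 and 8.88 in parental cells. It fell by 0.94 ± 0.07, or 1.92-fold (limma adjusted p = 0.00021, lower in 3 of 3 pairs). TM7SF2, the sterol C14 reductase, read 8.10, 8.01 and 8.05 in LR2, against 8.57, 8.67 and 8.50 in parental cells, in the same order of agents. It fell by 0.53 ± 0.07 (limma adjusted p = 0.0024, lower in 3 of 3 pairs), and all of its probe sets were lower. ELOVL6, which elongates palmitate, read 7.91, 7.70 and 8.01 in LR2, against 7.30, 7.44 and 7.56 in parental cells, and rose by 0.44 ± 0.08 (limma adjusted p = 0.00783). These 3 genes were called under every alternative tried for them, 15 for TM7SF2 and 16 for each of the others. Every TM7SF2 probe set was marked for cross-hybridization, so it could not be tested without such probe sets.

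Among the other genes called, MSMO1 rose by 0.54 ± 0.13 (limma adjusted p = 0.0231), with LR2 minus parental differences of 0.93 with ceritinib, 0.57 with crizotinib and 0.13 untreated. NSDHL rose by 0.48 ± 0.11 (adjusted p = 0.0187), with differences of 0.82, 0.35 and 0.27 in the same order. LSS, which closes the sterol rings, rose by 0.34 ± 0.08 (adjusted p = 0.0176), and MVK, mevalonate kinase, by 0.32 ± 0.08 (adjusted p = 0.0283). ACACA, the acetyl-CoA carboxylase that commits carbon to fatty acids, rose by 0.31 ± 0.09 (adjusted p = 0.048). FASN, fatty acid synthase, rose by 0.26 ± 0.08 (adjusted p = 0.0482), and SCD, the delta-9 desaturase, by 0.25 ± 0.07 (adjusted p = 0.0348). The calls of SCD and ACACA were lost with the mean of all probe sets. Over all alternatives the call of ACAT2 was lost in 12 of 16, FASN in 11 of 16, ACACA in 8 of 16 and SCD in 8 of 15. The other SCD probe sets differed by 0.27, 0.51 and 0.23 with ceritinib. They differed by -0.03, 0.16 and -0.11 with crizotinib, and by -0.05, 0.11 and 0.07 untreated. SREBF1 (-0.17 ± 0.20), SREBF2 (-0.02 ± 0.09), INSIG1 (0.10 ± 0.09), HMGCS1 (0.28 ± 0.13) and SQLE (-0.12 ± 0.10) did not pass the test.

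The count of genes that rose in LR2 rested on single arrays. It was 1 without LR2 ceritinib, without LR2 crizotinib or without parental crizotinib, 3 without parental untreated and 4 without parental ceritinib, while 2 genes fell in each of these fits. With ceritinib, 15 of 31 genes were at least 1.25-fold higher in LR2 than in parental cells (19.3% of all genes tested), with a median of 0.30, or 0.20 after centring, against 0.09 over all genes tested. With crizotinib, 2 of 31 were that much higher (8.87%), with a median of 0.08, and untreated, 1 was (10.4%), with a median of 0.03.

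**Figure D4:**
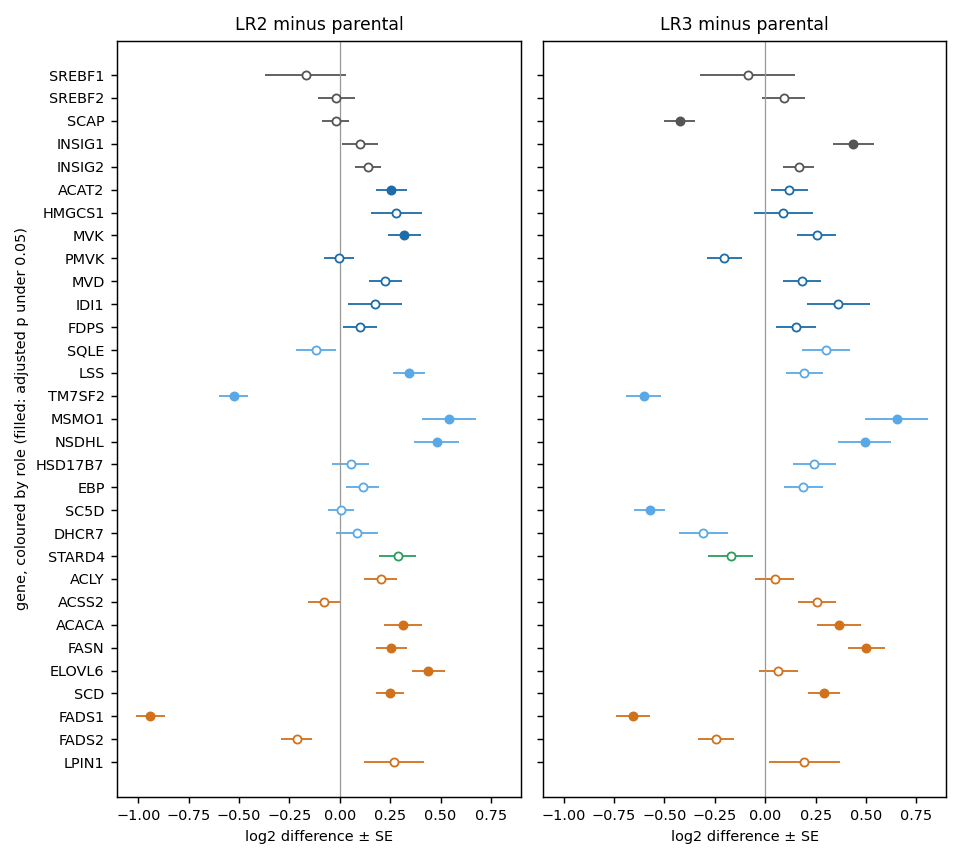
Log2 difference of LR2 and of LR3 from parental cells for the 31 genes in the additive fit, with bars of 1 SE. FADS1 and TM7SF2 lie below zero in both lines, SC5D and SCAP in LR3, and MSMO1 and NSDHL above zero in both.

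LR3 was compared with the same parental arrays, so the 2 comparisons are not independent. In LR3, 6 of 31 genes rose (9.53% of all genes tested) and 4 fell (12.1%), with a median of 0.16 over the 31, against 0.01 over all genes tested. The 6 were ACACA, FASN, INSIG1, MSMO1, NSDHL and SCD, and the 4 were FADS1, SC5D, SCAP and TM7SF2. The split was 6 to 6 (quantile) or 7 to 4 (centred) under other scaling, and over all genes tested 1157 to 1427 or 1501 to 1221, against 1003 to 1271 as deposited.

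SC5D, the lathosterol desaturase near the end of the pathway, read 8.78 and 8.92 in LR3 with ceritinib and untreated, against 9.35, 9.39 and 9.50 in parental cells with ceritinib, with crizotinib and untreated. It fell by 0.57 ± 0.08 (limma adjusted p = 0.00223, lower in 2 of 2 pairs). SCAP read 7.10 and 7.14 in LR3, against 7.58, 7.56 and 7.51 in parental cells, and fell by 0.43 ± 0.08 (adjusted p = 0.00839). In LR2 with ceritinib, with crizotinib and untreated, SC5D read 9.36, 9.40 and 9.50, and SCAP read 7.54, 7.54 and 7.51. FADS1 fell by 0.66 ± 0.09 (adjusted p = 0.00215) and TM7SF2 by 0.60 ± 0.09 (adjusted p = 0.00303).

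MSMO1 rose by 0.65 ± 0.16 (limma adjusted p = 0.0227), FASN by 0.50 ± 0.09 (adjusted p = 0.00825), NSDHL by 0.49 ± 0.13 (adjusted p = 0.032) and INSIG1 by 0.44 ± 0.10 (adjusted p = 0.0215). ACACA rose by 0.37 ± 0.11 (limma adjusted p = 0.0498) and SCD by 0.29 ± 0.08 (adjusted p = 0.0373). The ACACA call was lost in 11 of 16 alternatives, among them the mean of all probe sets, and the SCD call in 9 of 15. FASN read 7.38 and 7.60 in LR3 with ceritinib and untreated, against 6.92, 7.01 and 7.02 in parental cells. SREBF1 (-0.09 ± 0.23), SREBF2 (0.09 ± 0.11), HMGCS1 (0.09 ± 0.15) and SQLE (0.30 ± 0.12) did not pass. SREBF1 differed by -0.65 between LR3 and parental cells with ceritinib and by 0.41 between them untreated, so its fitted value averages opposite signs. The fit drew on the crizotinib arrays of the other lines. With the ceritinib and untreated arrays of LR3 and parental cells alone, 0 of the 10527 genes were called. The number that rose was 0 without LR3 untreated, 1 without LR3 ceritinib, LR2 crizotinib, parental ceritinib or parental crizotinib, 3 without LR2 untreated and 8 without LR2 ceritinib.

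Between the resistant lines, 2 of 31 genes were higher in LR3 than in LR2 (7.29% of all genes tested) and 4 were lower (12.3%). SQLE rose by 0.42 ± 0.12 (limma adjusted p = 0.0418) and ACSS2, which makes acetyl-CoA from acetate, by 0.34 ± 0.09 (adjusted p = 0.0408). SC5D fell by 0.58 ± 0.08 (adjusted p = 0.00191), STARD4 by 0.46 ± 0.11 (adjusted p = 0.0233), SCAP by 0.41 ± 0.08 (adjusted p = 0.00963) and ELOVL6 by 0.38 ± 0.10 (adjusted p = 0.0294). INSIG1 (0.34 ± 0.10), FASN (0.24 ± 0.09), SREBF2 (0.11 ± 0.11), SREBF1 (0.08 ± 0.23), SCD (0.04 ± 0.08) and HMGCS1 (-0.19 ± 0.15) did not pass. Quantile scaling split the 31 into 5 higher and 5 lower and centring into 5 and 4, and all genes tested into 1100 and 1216 or 1291 and 1105, against 767 and 1297 as deposited. SC5D was called under each of 16 alternatives. The other calls depended on single arrays, and the 31 held 1 call without LR3 untreated, 2 without LR3 ceritinib or LR2 untreated, 4 without LR2 ceritinib, LR2 crizotinib or parental crizotinib, and 9 without parental ceritinib.

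Other genes of lipid metabolism were counted from lists of neighbouring pathways. These counts stand beside 12.8% of all genes tested that rose and 9.68% that fell in LR2, and 9.53% that rose and 12.1% that fell in LR3. With so few genes in each list, nothing particular to a list is read from them. Of 23 further fatty acid and lipid genes, 3 rose and 2 fell in LR2, and 7 rose and 2 fell in LR3, relative to parental cells. ACSL4, an acyl-CoA synthetase that prefers polyunsaturated fatty acids, rose by 0.56 in LR2, and DGAT1, which makes triglyceride, fell by 0.47. ACADVL, a dehydrogenase of mitochondrial fatty acid oxidation, rose by 0.56 in LR3, and the elongase ELOVL7 fell by 0.68. Of 10 further sterol transport genes, 2 rose and 1 fell in LR2, and 0 rose and 1 fell in LR3. NPC2, which carries cholesterol out of lysosomes, fell by 0.61 in LR2 (limma adjusted p = 0.00141) and by 0.81 in LR3 (adjusted p = 0.000944). Of 7 further SREBP control genes, 1 rose in LR2 and 0 in LR3. That gene was RNF145, a ubiquitin ligase that acts on SCAP, which rose by 0.59 (limma adjusted p = 0.00377). Of 10 isoprenoid genes, 0 rose and 2 fell in LR2, and 1 rose and 1 fell in LR3.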

How the data were processed

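RNA of 8 conditions was measured on 1 expression array each. Values were used as deposited, as log2 signals of probe sets that the authors made with RMA, per the submitters' processing notes. For the software that ran RMA, and the arrays it covered, the sources used here give nothing. In the probe table, 1 symbol stood beside 44988 probe sets that were not controls. A gene was tested when its brightest probe set exceeded 5.36, the 50th percentile of all values, in at least 2 arrays.

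Line and agent differences came from an additive limma model (line plus agent, 3 residual degrees of freedom), and responses from a model of line by inhibitor or none (2 residual degrees of freedom), with limma 3.58.1 in R 4.3.3. Calls needed a p under 0.05 after Benjamini-Hochberg adjustment over the 10527 genes. Values after ± are standard errors. Genes named with values were the called members with the largest differences in each direction, up to 6, and SREBF1, SREBF2, INSIG1, HMGCS1, SQLE, FASN and SCD whether called or not. Other members are named where a count or a single array pair singles them out, which was decided after their values were seen. Up to 4 called genes of other lists were allowed. The members and lists were chosen with earlier results of these data known. The p-values measure only the spread between these arrays, and in the response model only that between the agents in parental and LR2 cells. Alternatives changed the probe set rule, scaling, filter and moderation, used matched arrays alone, or left out 1 array at a time.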

Additional observations from a re-analysis of the deposited data

How the results depend on the processing

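With 1 array per condition, precision is limited by how few arrays there are. The labels give no replicate numbers, so none could serve as a block, and lines were matched by agent through the agent term. No called difference changed sign under the alternatives run. The counts of the 31 genes called were as follows. LR2 against parental cells called 11 as reported, 6 without a filter on low values, and 3 to 9 with each array left out in turn. Without probe sets marked for cross-hybridization it called 7 of the 26 genes that could still be tested. TM7SF2 and SCD had no unmarked probe set, so neither could be called there. LR3 against parental cells called 10 as reported, 0 with matched arrays alone, and 4 to 13 with arrays left out. LR3 against LR2 called 6 as reported, 10 after quantile normalization, 3 without a filter, 1 with matched arrays alone, and 1 to 9 with arrays left out. Crizotinib against untreated called 0 to 5 and ceritinib against crizotinib 0 to 1 with arrays left out, both highest without parental ceritinib. Ceritinib against untreated and all 5 response comparisons called 0 of the 31 under every alternative run. Over all genes, LR2 against parental cells called 2369 as reported and 1146 to 2116 with arrays left out. LR3 against parental cells called 2274, 0 with matched arrays and 632 to 2311 with arrays left out. LR3 against LR2 called 2064, 544 with matched arrays and 710 to 2630 with arrays left out. Crizotinib against untreated called 396, 151 without a filter, 601 with a filter on all arrays, 797 with a trended prior, 15 with matched arrays, and 0 to 1529 with arrays left out. Ceritinib against untreated called 0, 61 with a trended prior, 57 with a filter on all arrays, 22 without probe sets marked for cross-hybridization, and 0 to 3 with arrays left out. Ceritinib against crizotinib called 0, and 401 without parental ceritinib. The 5 response comparisons called 0 genes under each alternative. Fits on fewer arrays also have fewer degrees of freedom, and otherwise the cause was not tested. Treating the LR2 inhibitor arrays as separate conditions, an alternative chosen after seeing the data, called 0 members.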
